A study of Mus musculus and Homo sapiens with 12 samples.

Results

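The tRNA families whose genes mostly carry an intron were followed through the tRNA-charging assay: tRNA-Arg-TCT, tRNA-Leu-CAA, tRNA-Tyr-GTA and tRNA-Ile-TAT. Members were chosen by amino acid and anticodon from the names in the count files, including entries spelt LeT-CAA, and no measured value entered the choice. They were 47 of the 484 tRNA gene entries, with 24 of 224 in the mouse files and 23 of 260 in the human files. As isoacceptors, the tRNAs that share an amino acid and an anticodon, they were 4 of 51 in mouse and 4 of 49 in human.

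The assay was run on 12 libraries in 4 groups of 3. MEF cells, which are mouse embryonic fibroblasts, were kept for 6 h in medium with dialyzed serum, either without drug (NT) or with 100 nM halofuginone (HF), an inhibitor of prolyl-tRNA synthetase. The labels give 6 h for HF, whereas the figure legends of the study give a shorter time. NTERT cells, an immortalized line of human keratinocytes, were left untreated (NT) or received 400 J/m2 of UV-B, with 3 h of recovery. Nothing in the labels says that the 3 libraries of a group came from separate cultures. A legend of the study calls the 3 MEF libraries of a group biological replicates, and its methods state at least 3 such replicates for its results. How the cultures were kept apart is not described, so the p-values measure only the spread between these libraries.

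In the cell, the intron of a pre-tRNA lies next to the anticodon and is cut out by the tRNA splicing endonuclease, and a ligase joins the exons. A nucleotidyltransferase supplies the CCA end, and a synthetase attaches the amino acid to its last adenosine. Between them these tRNAs read the tyrosine codons, AUA for isoleucine, UUG for leucine and AGA for arginine. In the assay, periodate and a basic wash remove the last A from uncharged tRNAs only, so a read that ends in CCA counted as charged and a read that ends in CC as uncharged.

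The gene structures were read from the human genome, build GRCh38 (hg38), by a search for the cloverleaf of each family. A pair of genes per family is printed 5′ to 3′, with the intron in capitals and the exons in lower case, because the position and the size of the insert define the group. The pairs of tRNA-Tyr-GTA, tRNA-Ile-TAT and tRNA-Leu-CAA have identical exons and different introns. The second tRNA-Arg-TCT gene is shown because it has no intron.

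tRNA-Tyr-GTA gene at chr14:20663192-20663285, minus strand: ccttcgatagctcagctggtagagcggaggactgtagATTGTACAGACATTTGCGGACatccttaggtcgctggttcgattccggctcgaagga

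tRNA-Tyr-GTA gene at chr14:20683273-20683361, plus strand: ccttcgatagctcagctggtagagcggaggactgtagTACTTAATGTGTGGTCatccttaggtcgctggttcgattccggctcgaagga

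tRNA-Ile-TAT gene at chr2:42810536-42810628, plus strand: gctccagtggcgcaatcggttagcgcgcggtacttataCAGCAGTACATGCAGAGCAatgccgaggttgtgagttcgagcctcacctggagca

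tRNA-Ile-TAT gene at chr6:27631421-27631514, plus strand: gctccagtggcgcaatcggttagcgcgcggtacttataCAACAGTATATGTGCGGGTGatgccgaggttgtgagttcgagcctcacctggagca

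tRNA-Leu-CAA gene at chr6:28896223-28896328, minus strand: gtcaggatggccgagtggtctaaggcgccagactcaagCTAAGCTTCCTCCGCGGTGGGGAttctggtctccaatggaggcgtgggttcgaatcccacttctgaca

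tRNA-Leu-CAA gene at chr6:28941053-28941157, plus strand: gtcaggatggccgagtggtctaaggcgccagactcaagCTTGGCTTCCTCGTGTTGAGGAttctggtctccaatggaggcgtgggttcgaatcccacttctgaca

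tRNA-Arg-TCT gene at chr11:59551294-59551379, plus strand: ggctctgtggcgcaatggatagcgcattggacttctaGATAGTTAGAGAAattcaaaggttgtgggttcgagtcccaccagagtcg

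tRNA-Arg-TCT gene at chr1:159141611-159141684, minus strand: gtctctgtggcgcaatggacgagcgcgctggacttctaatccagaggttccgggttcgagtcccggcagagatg

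The first 6 genes lie outside the genes of the annotation, the first tRNA-Arg-TCT gene lies in an intron of a long noncoding RNA gene, and the gene without an insert lies in an intron of AIM2. The search kept 27 genes. All 12 tRNA-Tyr-GTA genes had an intron, of 16 to 21 bases in the 10 whose sequence was used. The 5 tRNA-Leu-CAA genes had introns of 22 to 24 bases and the 5 tRNA-Ile-TAT genes of 19 to 20 bases. In tRNA-Arg-TCT, 4 of 5 genes had an intron, of 12 to 18 bases, so 1 of the 27 genes kept had none. The human count files name 6 tRNA-Leu-CAA entries, more than the 5 genes kept, so the search did not reach every entry. Whether entries without a located gene have an intron was not examined.

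The exons varied far less than the introns. After splicing, the 5 tRNA-Ile-TAT genes gave 3 distinct sequences, which differed at 1 to 2 positions, although all 5 introns were distinct. The 10 tRNA-Tyr-GTA genes gave 8 spliced sequences and 10 introns, and the 5 tRNA-Leu-CAA genes gave 4 and 5. For tRNA-Arg-TCT there were 4 spliced sequences, and those of equal length differed at 1 to 7 positions. Reads from such near-identical copies cannot be assigned to 1 gene with certainty, which limits every value given per gene.

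In the mouse, 20 loci of these families were taken from RefSeq (assembly GRCm38.p6). A chromosome was left out of this list, so RefSeq may hold more of them. The 4 tRNA-Leu-CAA loci are 105 to 107 bases long and the 10 tRNA-Tyr-GTA loci 86 to 93 bases. The single tRNA-Ile-TAT locus of the list has 94 bases, whereas the mouse count files hold 5 tRNA-Ile-TAT entries. The 5 tRNA-Arg-TCT loci have 74 to 87 bases, the shortest being as long as the human gene without an intron. The names in the mouse count files held 7 entries that are further copies of an already listed mature sequence. All 7 were in these families, 5 in tRNA-Tyr-GTA and 2 in tRNA-Ile-TAT, and 0 were among the other 200 mouse entries. The human files held 0 such copies in these families and 1 among the other 237 entries. Whether the mouse reference held the introns was not tested.

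The libraries differed in depth, with 617693 to 6286863 reads on tRNA genes in MEF and 253693 to 1992671 in NTERT cells. The columns of the files carry no names, and the second was taken as reads ending in CCA because its share at tRNA-Pro was 42.1% to 55.5% in MEF NT and 8.18% to 29.9% in HF. The same order was taken for the NTERT files. The share of sequenced reads that fell on tRNA genes was 3.43% to 9.52% in the 3 MEF NT libraries and 19.1% to 27.8% in the 3 HF libraries. That gap runs with the treatment, and its part in the MEF differences below was not tested.

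The 4 families together took 0.148% to 0.206% of the tRNA reads in MEF NT and 0.0844% to 0.0987% in HF. In NTERT cells they took 2.42% to 3.56% without treatment and 2.31% to 2.73% after UV-B. By number of reads, the families ranked between 35 and 47 of 48 isoacceptors in every MEF library. In NTERT cells tRNA-Arg-TCT ranked 11 to 16 of 47, whereas tRNA-Ile-TAT was last or next to last in each library. The mouse values therefore rest on few reads, and the intervals printed with single values below are 95% Wilson intervals that cover counting error only.

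Of the member entries, 15 of 24 in MEF had a mean of at least 50 reads, the minimum for a test, and 10 had that many reads with either end. In NTERT cells these were 14 and 13 of 23. The remaining entries were summed into their family but not tested by gene. Ile-TAT-3-1 was at 0 reads in all 6 MEF libraries. Arg-TCT-4-1, known in mice for its expression in the nervous system, had 4 to 24 reads per MEF library and 49 to 372 per NTERT library.

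Charging was computed as the percentage of CCA reads among reads with either end, and the log2 ratio of CCA to CC reads was tested by limma, with Benjamini-Hochberg adjustment over all isoacceptors of a cell type and a threshold of 0.05. In MEF cells, all 4 families had a positive difference in charging with HF, and tRNA-Arg-TCT was the only family called. In NT, 60.7%, 52.2% and 44.2% of tRNA-Arg-TCT was charged, and under HF 92.0%, 82.4% and 81.9%. All HF libraries lay above all NT libraries. The log2 ratio rose by 2.50 (SE 0.73, limma adjusted p = 0.0171, n = 3 and 3). This was 1 of the 4 families, against 9 of 48 isoacceptors called, or 18.8%. Over all 48 isoacceptors the median difference was 1.21, and 45 of them were higher in HF, so the family rose in a background that rose. With the median of each library subtracted, the difference was 1.14 and was not called (adjusted p = 0.508), nor was it by quasi-binomial regression (adjusted p = 0.213). The call was also lost when NT library 1, HF library 1 or HF library 2 was left out (adjusted p = 0.163, 0.0897 and 0.176), and the difference ran from 2.06 to 2.74 with each of the 6 libraries left out in turn.

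The charging of tRNA-Tyr-GTA did not pass the threshold. It was 56.6%, 42.9% and 67.0% in NT and 74.9%, 80.6% and 85.7% under HF. The groups did not overlap, which held for 14 of 48 isoacceptors, or 29.2%. The difference on the log2 scale was 1.73 (SE 0.73, limma adjusted p = 0.0776). Without the third NT library it was 2.08 and was called (adjusted p = 0.0229).

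tRNA-Leu-CAA, which reads UUG, and tRNA-Ile-TAT, the minor isoleucine tRNA that reads AUA, overlapped between the groups. tRNA-Leu-CAA was 74.2%, 53.5% and 73.2% charged in NT and 70.8%, 78.6% and 79.7% in HF. tRNA-Ile-TAT was 80.4%, 43.1% and 80.8% charged in NT and 80.4%, 78.5% and 81.6% in HF. For both, the second NT library was the low one, and in that library the median isoacceptor was also low, at 55.7% against 71.9% and 80.7% in the other two. The log2 differences were 0.64 for tRNA-Leu-CAA (adjusted p = 0.384) and 0.78 for tRNA-Ile-TAT (adjusted p = 0.325), by limma. Without the second NT library the difference of tRNA-Ile-TAT was -0.03. In that library tRNA-Ile-TAT had 58 reads with either end, and the interval ran from 31.2% to 55.9%.

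**Figure D1:**
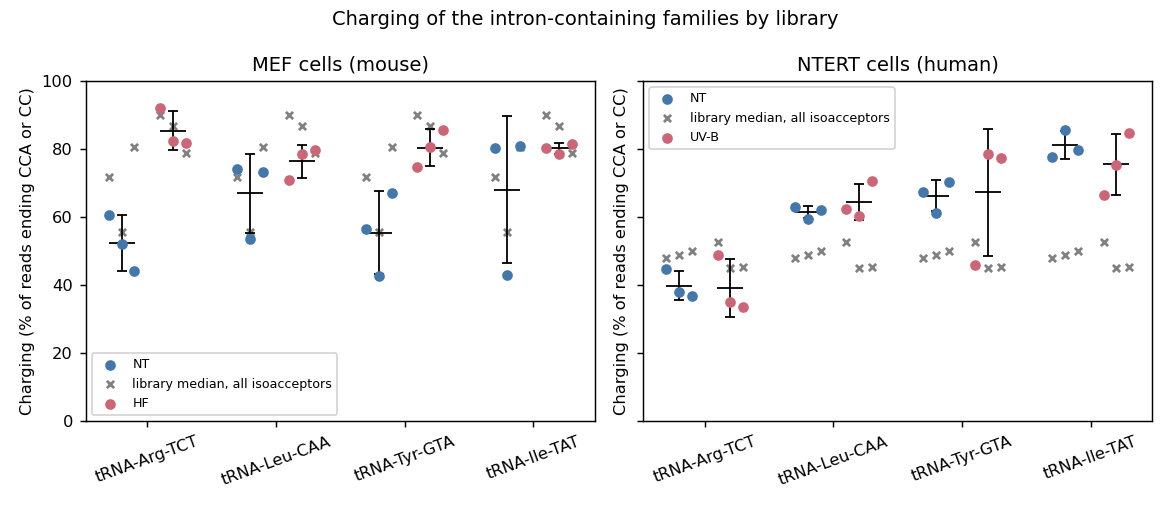
Percent charging, as CCA reads over CCA plus CC reads, of each family in every library of MEF cells (left) and NTERT cells (right), with untreated libraries in blue and treated libraries in red. Black marks are means with SD (n = 3), and grey crosses are the median of all isoacceptors in the same library. tRNA-Arg-TCT in MEF cells is at 44.2% to 60.7% in NT and at 81.9% to 92.0% in HF.

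After UV-B, none of the families in NTERT cells passed the threshold, and 0 of 47 isoacceptors did (0% called by limma, with 0 at an unadjusted p under 0.05). tRNA-Arg-TCT was 44.8%, 37.98% and 36.98% charged in NT and 48.9%, 35.03% and 33.6% after UV-B. tRNA-Leu-CAA was 63.1%, 59.5% and 62.0% charged in NT and 62.5%, 60.5% and 70.6% after UV-B. The groups of both overlapped, and the log2 differences were -0.05 (SE 0.35) and 0.19 (SE 0.30). tRNA-Tyr-GTA was 67.3%, 61.3% and 70.3% charged in NT and 45.9%, 78.6% and 77.4% after UV-B. The low value of the first UV-B library rests on 85 reads with either end, with an interval from 35.7% to 56.4%. tRNA-Ile-TAT was 77.8%, 85.7% and 79.8% charged in NT and 66.7%, 75.4% and 84.7% after UV-B. Its log2 difference was -0.42 (SE 0.43), that of tRNA-Tyr-GTA was 0.15 (SE 0.57), and the adjusted p of all 4 families was 0.986.

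The families stood at different levels in untreated NTERT cells. tRNA-Ile-TAT had the highest charging of all 47 isoacceptors in each of the 3 NT libraries, with a mean of 81.1% ± 4.12 (SD, n = 3). tRNA-Tyr-GTA followed at 66.3% ± 4.61 and tRNA-Leu-CAA at 61.5% ± 1.86. These neighbours overlapped, with tRNA-Tyr-GTA at 61.3% to 70.3% and tRNA-Leu-CAA at 59.5% to 63.1%. tRNA-Arg-TCT was lowest at 39.9% ± 4.27, below the library median of 48.0% to 49.9% in every NT library. In untreated MEF cells the order was tRNA-Ile-TAT, tRNA-Leu-CAA, tRNA-Tyr-GTA and tRNA-Arg-TCT, with means of 68.1%, 67.0%, 55.5% and 52.4% and SDs of 8.24 to 21.7, so neighbours in that order overlapped.

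Each family was then set against the other isoacceptors of its amino acid, which are served by the same synthetase. In untreated NTERT cells, tRNA-Ile-AAT was 36.6% ± 2.13 charged, far below tRNA-Ile-TAT. The other leucine isoacceptors were also below tRNA-Leu-CAA there, with 20.9% for Leu-AAG, 38.8% for Leu-CAG, 47.7% for Leu-TAA and 19.2% for Leu-TAG. For arginine the order was turned, since Arg-CCG, Arg-CCT and Arg-TCG were at 57.9%, 67.5% and 58.4% and Arg-ACG, at 41.2%, was near tRNA-Arg-TCT. Tyrosine had no second isoacceptor with enough reads, as Tyr-ATA had 15 to 28 reads per NTERT library.

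In MEF NT libraries the arginine isoacceptors other than tRNA-Arg-TCT had mean charging of 71.7% to 80.3%, and in HF of 86.2% to 90.5%. The log2 ratio of tRNA-Arg-TCT relative to them was -0.93, -0.49 and -2.97 in NT and 0.49, -1.19 and -0.53 in HF. These groups overlapped, and the difference of 1.05 gave p = 0.5 by exact permutation, two-sided. The same difference was -0.61 for tRNA-Leu-CAA (exact p = 0.3) and -0.77 for tRNA-Ile-TAT (exact p = 0.4). In NTERT cells it was 0.10, 0.25 and -0.50 for tRNA-Arg-TCT, tRNA-Leu-CAA and tRNA-Ile-TAT, with exact p of 0.8, 0.6 and 0.6. With 20 labelings the smallest p that this test can give is 0.1, so no difference of this design could pass 0.05.

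By the root mean square difference in percent charging over the 6 libraries of a cell type, the isoacceptors nearest to tRNA-Arg-TCT in MEF cells were Leu-TAA at 11.5 percentage points and tRNA-Tyr-GTA at 12.5. Nearest to tRNA-Leu-CAA were Ser-GCT at 5.72 and tRNA-Ile-TAT at 7.07, and nearest to tRNA-Ile-TAT were tRNA-Leu-CAA at 7.07 and Thr-CGT at 8.11. For tRNA-Tyr-GTA they were Glu-CTC at 8.19 and Cys-GCA at 8.54. The median distances to all 47 others were between 11.8 and 18.4. In NTERT cells tRNA-Arg-TCT lay nearest to Thr-CGT at 1.72 and Gln-TTG at 3.02, and tRNA-Leu-CAA nearest to Trp-CCA at 5.05 and Arg-CCT at 5.88. Arg-CCT at 9.48 and Trp-CCA at 9.99 were nearest to tRNA-Tyr-GTA, and Lys-CTT at 10.5 and Gly-GCC at 11.1 to tRNA-Ile-TAT.

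The share of reads was given in RPM, reads per 1000000 reads on tRNA genes, and tested by limma as log2 values scaled by TMM. A lower share of 1 tRNA and a higher share of the others cannot be told apart in such data, nor can fewer molecules and less efficient capture. In MEF cells tRNA-Leu-CAA fell with HF. It had 492, 620 and 499 RPM in NT and 131, 161 and 202 under HF, and the groups did not overlap. The share fell by 1.57 on the log2 scale (SE 0.35, limma adjusted p = 0.000569). It was the only isoacceptor of 48 called lower, among 7 called in either direction (14.6%). All 13 alternatives kept the call, with differences from -1.84 to -1.53 and adjusted p from 0.000169 to 0.0149.

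tRNA-Tyr-GTA had 320, 458 and 511 RPM in NT and 151, 276 and 267 in HF. tRNA-Ile-TAT had 105, 147 and 119 in NT and 65.0, 80.7 and 75.6 in HF. Neither overlapped between the groups, as was the case for 13 of 48 isoacceptors (27.1%), and neither passed the threshold, with log2 differences of -0.76 (adjusted p = 0.140) and -0.59 (adjusted p = 0.256) by limma. tRNA-Arg-TCT had 568, 834 and 439 in NT and 529, 327 and 442 in HF. These groups overlapped, and the log2 difference was -0.33 (adjusted p = 0.607). All 4 families had a negative difference, with a median of -0.68 against 0.09 over the 48 isoacceptors.

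Among the other isoacceptors of the same amino acids, 0 of 9 were called in read share with HF by limma. The groups of Leu-CAG (lower in HF) and Ile-AAT (higher in HF) did not overlap, as held for 13 of 48 isoacceptors (27.1%). The log2 differences of the leucine isoacceptors were -0.58 for Leu-CAG, -0.45 for Leu-TAA, -0.45 for Leu-TAG and -0.10 for Leu-AAG. Those of the other arginine isoacceptors ran from -0.11 for Arg-CCT to 0.32 for Arg-ACG, and Ile-AAT was at 0.72. Thus the leucine isoacceptors all had negative values, whereas Ile-AAT and tRNA-Ile-TAT had opposite signs.

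**Figure D2:**
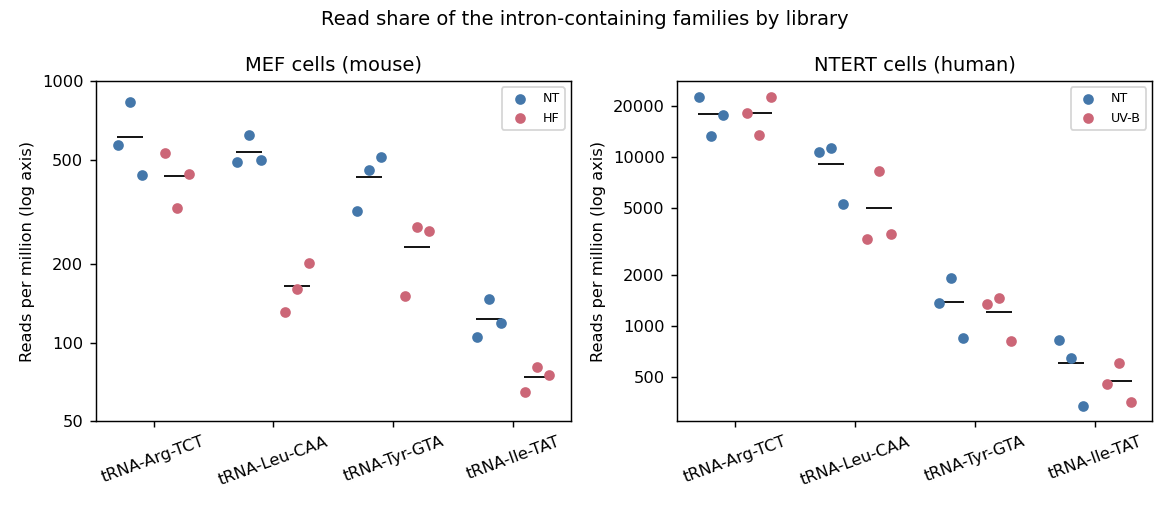
RPM (log axis) of each family in every library of MEF cells (left) and NTERT cells (right), with untreated libraries in blue, treated libraries in red and the group mean as a black line. tRNA-Leu-CAA in MEF cells lies at 492 to 620 in NT and at 131 to 202 in HF.

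In NTERT cells the families had higher RPM than in MEF cells, though the references and the species differ and no test was made. tRNA-Arg-TCT had 22684, 13296 and 17744 RPM in NT and 18105, 13389 and 22637 after UV-B. tRNA-Leu-CAA had 10709, 11321 and 5256 in NT and 3244, 8250 and 3513 after UV-B. Its log2 difference of -0.96 (SE 0.42) was at an unadjusted p of 0.0346 and an adjusted p of 0.513 by limma, and the groups overlapped through the third NT and the second UV-B library. Within leucine the values were -1.54 for Leu-TAA, -0.59 for Leu-CAG, 0.51 for Leu-TAG and 0.72 for Leu-AAG. tRNA-Tyr-GTA was at 843 to 1931 RPM in NT and 815 to 1455 after UV-B, and tRNA-Ile-TAT at 336 to 823 and 354 to 607. Of all 48 isoacceptors, 0 were called by limma (0%) and 4 had an unadjusted p under 0.05.

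**Figure D3:**
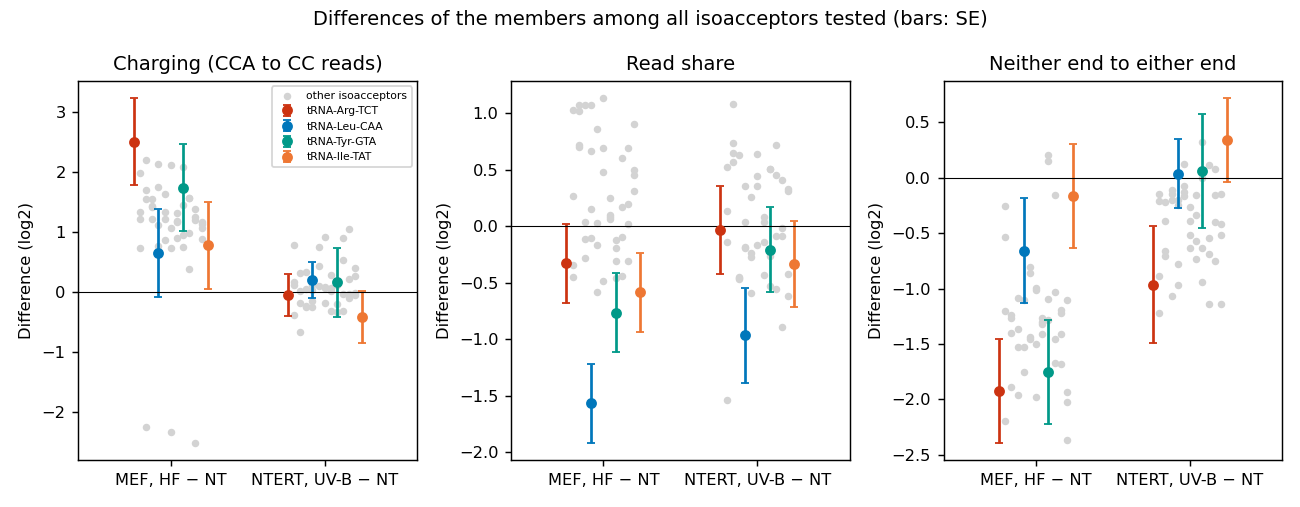
Log2 differences, treated minus untreated, in charging (left), read share (middle) and the ratio of reads with neither end to reads with either end (right), for MEF and NTERT cells. Colored points are the families with the SE of limma, and grey points are all other isoacceptors tested. In MEF cells tRNA-Arg-TCT is at 2.50 in charging and tRNA-Leu-CAA at -1.57 in read share.

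Reads that ended in neither CCA nor CC made up a large part of these families. In MEF NT libraries they were 47.9%, 56.5% and 56.4% of the reads of tRNA-Arg-TCT, against a median isoacceptor of 7.46%, 11.5% and 6.92%. In the HF libraries they were 16.5%, 30.7% and 24.3%, against 4.08%, 3.83% and 4.62%. The families ranked between 4 and 13 of 48 from the top in every MEF library. Such a level was not particular to them. Leu-TAA, outside the families, had means of 66.7% in NT and 62.7% in HF, above all 4 families. The remaining arginine, leucine and isoleucine isoacceptors had means of 2.24% to 24.9% in NT. Charging in these cells is therefore measured on part of the reads only, and on a smaller part in NT than in HF for tRNA-Arg-TCT.

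In MEF cells the ratio of neither-end to either-end reads was lower in HF in all 4 families and in 46 of 48 isoacceptors. Called lower were 2 of the 4 families, against 38 of 48 isoacceptors (79.2%), by limma. tRNA-Arg-TCT fell by 1.92 on the log2 scale (limma adjusted p = 0.000386). tRNA-Tyr-GTA had 39.0%, 48.1% and 61.0% of such reads in NT and 30%, 14.4% and 24.8% in HF, and its ratio fell by 1.76 (limma adjusted p = 0.0012). Both were free of overlap, as were 35 of 48 isoacceptors (72.9%).

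tRNA-Leu-CAA had 27.9%, 47.8% and 48.1% of such reads in NT and 23.8%, 21.1% and 49.6% in HF. tRNA-Ile-TAT had 19.0%, 36.3% and 40.2% in NT and 26.4%, 24.2% and 35.8% in HF. Their log2 differences of -0.66 and -0.17 were not called (limma adjusted p = 0.191 and 0.744) and lay above the median of -1.29 over all isoacceptors. The value of tRNA-Leu-CAA rested on single libraries, running from -1.25 to -0.31 with each left out in turn, and it was called without the third HF library (-1.25, limma adjusted p = 0.0446). It was -1.08 without the first NT library and -0.31 without the second HF library, neither of which was called. With the library median subtracted, no family was called, and tRNA-Arg-TCT was at -0.85 and tRNA-Ile-TAT at 0.91.

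**Figure D4:**
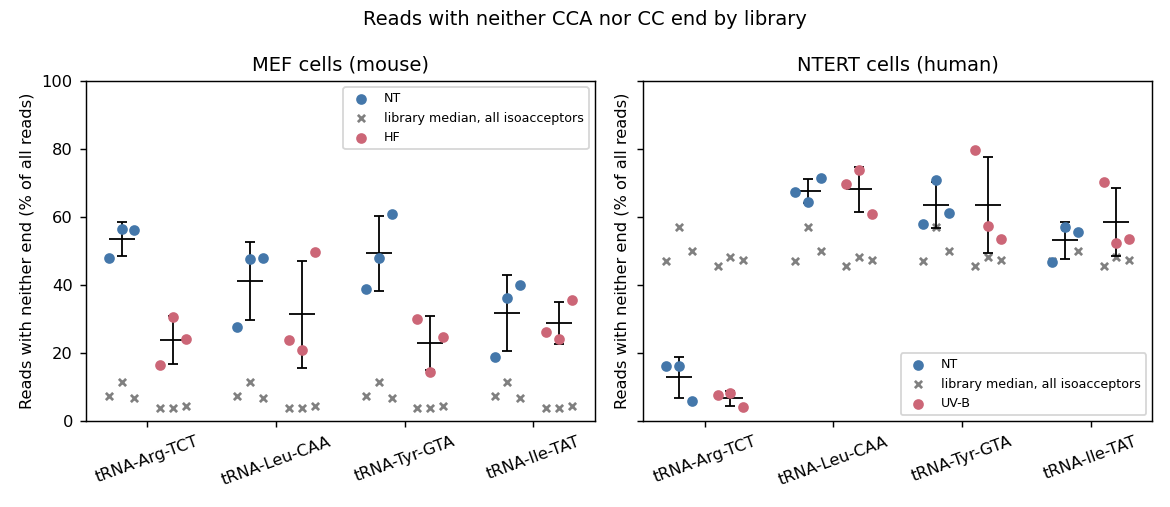
Percent of all reads that ended in neither CCA nor CC, by family and library, in MEF cells (left) and NTERT cells (right), with the mean and SD (n = 3) in black and the library median over all isoacceptors as grey crosses. tRNA-Arg-TCT lies far above the crosses in MEF cells and far below them in NTERT cells, at 4.19% to 16.4%.

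In NTERT cells the order of the families was another one. tRNA-Arg-TCT had 16.4%, 16.4% and 6.10% of reads with neither end in NT and 7.76%, 8.39% and 4.19% after UV-B, and ranked 43 to 46 of 47 from the top. tRNA-Leu-CAA had 64.5% to 71.5% in NT and 61.0% to 73.8% after UV-B, and tRNA-Tyr-GTA 58.1% to 71.0% and 53.7% to 79.8%. Among the other leucine isoacceptors, NT means were 89.6% for Leu-TAA, 65.7% for Leu-CAG, 42.2% for Leu-TAG and 34.9% for Leu-AAG. tRNA-Ile-TAT, at 46.8% to 57.1% and 52.5% to 70.2%, lay near the library medians of 47.0% to 57.1% in NT. None of the families was called with UV-B, and 0 of 48 isoacceptors were (0%, with 3 at an unadjusted p under 0.05) by limma. The log2 differences were -0.96 for tRNA-Arg-TCT, 0.04 for tRNA-Leu-CAA, 0.06 for tRNA-Tyr-GTA and 0.34 for tRNA-Ile-TAT.

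Read by gene, all 10 member genes tested in MEF cells had higher charging in HF, as did 134 of 139 genes, with a median difference of 1.30 over all genes. The 10 are not independent, since entries such as Tyr-GTA-3-1 and Tyr-GTA-3-2 are by name copies of 1 mature sequence. Called higher were 3 of the 10, against 20 of 139 genes called in either direction (14.4%), 16 of them higher. With the library median subtracted, 0 member genes were called. Arg-TCT-1-1 was 73.1%, 57.3% and 61.9% charged in NT and 96.5%, 88.5% and 85.8% in HF. Arg-TCT-2-1 was lower in both, at 20%, 37.8% and 11.9% in NT and 75.4%, 52.1% and 45.8% in HF. The log2 ratio rose by 2.57 in the first (limma adjusted p = 0.0207) and by 2.32 in the second (adjusted p = 0.0311). Arg-TCT-3-1 was 71.4%, 54.5% and 59.3% charged in NT and 77.3%, 79.3% and 80.8% in HF, a difference of 1.21 that did not pass (adjusted p = 0.179). The third gene called was Tyr-GTA-2-1, at 54.1%, 22.9% and 63.4% in NT and 77.1%, 84.8% and 87.0% in HF (log2 difference 2.52, adjusted p = 0.0207). The other 6 genes tested, among them the 4 of tRNA-Leu-CAA, had differences from 0.10 to 1.501 and were not called. Leaving out the first NT or the second HF library brought the number of member genes called to 0. Leaving out the second NT or the first HF library brought it to 1, and leaving out the third NT library to 6.

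The make-up of tRNA-Arg-TCT differed between NT and HF. Arg-TCT-1-1 gave 32.4%, 29.5% and 30.8% of the family's reads in NT and 66.2%, 46.2% and 61.3% in HF. Arg-TCT-2-1 gave 35.3%, 38.1% and 41.2% in NT and 13.2%, 19.97% and 16.1% in HF. For both genes all HF libraries lay on 1 side of all NT libraries. These shares were not tested, and how often the genes of other families separate in this way was not counted. Arg-TCT-3-1 gave 23.8% to 28.4% in NT and 16.9% to 28.2% in HF, with overlap. The genes also differed in reads with neither end, which were 24.4% to 43.2% of Arg-TCT-1-1 and 64.6% to 81.1% of Arg-TCT-2-1 in NT. With each gene given the same weight, tRNA-Arg-TCT was called in charging (log2 difference 2.00, limma adjusted p = 0.0283). That setting gives full weight to Arg-TCT-4-1, with 2 to 18 reads with either end per library, and Arg-TCT-5-1, with 10 to 90. The library median was not subtracted in it.

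**Figure D5:**
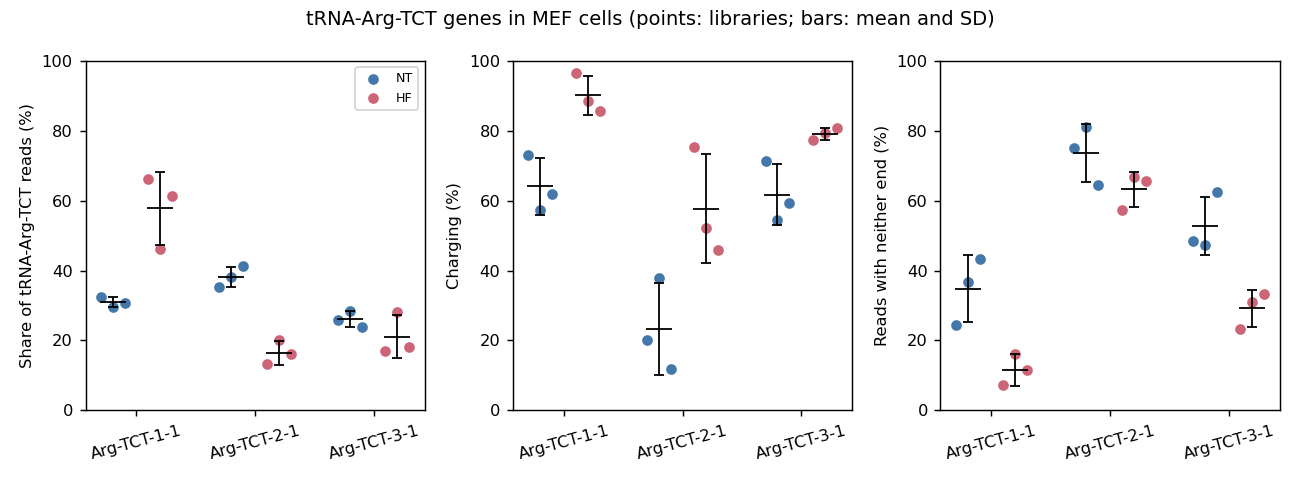
The 3 tRNA-Arg-TCT genes with enough reads in MEF cells, by share of the family's reads (left), charging (middle) and reads with neither end (right), in percent, for NT (blue) and HF (red) libraries, with mean and SD (n = 3). Arg-TCT-1-1 is at 29.5% to 32.4% of the family in NT and at 46.2% to 66.2% in HF.

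In read share, 7 of the 15 member genes tested in MEF cells were called lower in HF, and 14 of the 15 had a negative difference. Some of these entries, such as Tyr-GTA-3-1 and Tyr-GTA-3-2, are by name copies of 1 mature sequence and can share reads. The counts are therefore not counts of independent genes. Over all 147 genes, 19 were called (12.9%) and 9 were called lower (6.12%), so that 7 of the 9 lower calls were member genes and the other two were Gln-CTG-5-1 and Leu-CAG-3-1. All 4 tRNA-Leu-CAA genes were among them. Leu-CAA-3-1 had 200.3, 222 and 162 RPM in NT and 49.9, 58.5 and 66.2 in HF, and Leu-CAA-2-1 had 131, 212 and 189 in NT and 28.6, 48.9 and 66.8 in HF. They fell by 1.63 and 1.83 on the log2 scale, Leu-CAA-4-1 fell by 1.61 and Leu-CAA-1-1 fell by 1.14 (limma adjusted p from 0.00343 to 0.0396). Within the family, Leu-CAA-1-1 gave 11.8%, 15.4% and 13.6% of the reads in NT and 22.6%, 15.8% and 18.5% in HF. All HF libraries lay above all NT libraries, but only narrowly. The nearest values, of NT library 2 and HF library 2, rest on 59 and 56 reads of this gene. Shares within a family were not tested. The shares of the other 3 genes overlapped, with Leu-CAA-3-1 at 32.4% to 40.7% and 32.7% to 38.1%.

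The remaining 3 genes called lower were Arg-TCT-2-1, Tyr-GTA-1-5 and Tyr-GTA-4-1, which fell by 1.61, 1.83 and 0.96. Arg-TCT-1-1 had 184, 246 and 135 RPM in NT and 350.1, 151 and 271 in HF, and was the only member gene of the 15 tested with a positive difference, 0.52 (adjusted p = 0.321). The 3 tRNA-Ile-TAT genes tested had differences of -0.71, -0.67 and -0.67, which did not pass. With no minimum number of reads 3 member genes were called. Leaving out the second NT or the first HF library also gave 3, and leaving out the third NT library gave 4.

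In NTERT cells no member gene passed the threshold, in charging (13 tested) or read share (14 tested), and over all genes 0 of 168 and 0 of 219 were called by limma (0% in both). At an unadjusted p under 0.05 there were 3 and 8 genes. Charging of the tRNA-Arg-TCT genes 1-1, 2-1 and 3-1 was 25.8% to 49.7% over the 6 libraries. Arg-TCT-4-1 had 39.3%, 42.9% and 54.1% in NT and 52.6%, 60.9% and 58.2% after UV-B (log2 difference 0.67, adjusted p = 0.999), and these groups overlapped. It also had more reads with neither end, 55.6% to 72.3%, than the 3.22% to 21.2% of the other 3 genes.

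Leu-CAA-4-1 and Leu-CAA-1-1 gave most reads of tRNA-Leu-CAA in NTERT cells, 31.5% to 38.9% and 23.3% to 28.7%. Leu-CAA-5-1 and Leu-CAA-6-1 had 5 to 49 reads per library, with at least 78.6% of them without either end. In read share, the 4 well-read genes had differences of -0.76 to -1.16, of which the largest in size was -1.16 for Leu-CAA-2-1 (limma adjusted p = 0.724). It had 1849, 1995 and 1350.4 RPM in NT and 554, 1428 and 582 after UV-B. The groups overlapped through the third NT and the second UV-B library, although they did not after TMM scaling.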

How the data were processed

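The genome-wide tRNA-charging assay had been run on 6 MEF and 6 NTERT libraries. Per the labels and the study's methods, the authors trimmed the reads, aligned them with Bowtie2 to tRNA gene sequences with CCA appended, made for human from unique GRCh38 genes, and deposited whole-number read counts per gene without normalization, as all reads, reads ending in CCA and reads ending in CC. Reads that ended in neither were all reads minus both. The making of the mouse reference is not given in the sources used here. Other deposited lines (unaligned reads, yeast sequences) were left out, and the depth is given as reads on tRNA genes.

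Member lines were summed by family. Groups and replicate numbers came from the sample titles. Log2 ratios with 0.5 added to each count were tested with limma 3.58.1 in R 4.3.3 (lmFit, eBayes), for isoacceptors or genes with a mean of at least 50 reads, with Benjamini-Hochberg adjustment within a cell type and a threshold of 0.05. Read share was scaled by TMM (trims of 30% and 5%), and adjusted p-values cover all features, not the members alone. In the MEF fits of isoacceptor charging, isoacceptor read share and gene charging, limma gave all features 1 common spread, hence the equal SEs. Each family was compared with the other isoacceptors of its amino acid by a two-sided exact permutation test. The isoacceptor fits were tried on simulated libraries with known changes, independent noise and no shift common to most isoacceptors. MEF charging had such a shift, so that trial does not cover it.

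Human genes were found by a structural search of hg38 with a score of at least 35, a limit set after the scores were seen (27 genes at 37 or more, 2 discarded hits at 27 or less). Genes on chromosome 8 were counted without their sequence. These loci could not be matched to the gene numbers of the count files. Mouse loci are from RefSeq, with a chromosome left out. Python 3.11.15, pandas 2.3.3 and matplotlib 3.10.9 were used.

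The members, the lists and the tests were chosen with earlier results of these data known. Named were the 4 families, their genes with at least 50 reads on average, the other arginine, leucine and isoleucine isoacceptors, and the 2 isoacceptors nearest in charging. Genes named with fewer reads, Gln-CTG-5-1 and Leu-CAG-3-1 were chosen after their values were seen. The alternatives were another pseudocount (5), no minimum or 500 reads, the library median subtracted, a replicate block, limma on the fraction, quasi-binomial regression, equal weights, library totals, median-of-ratios scaling, reads with either end only, and each library left out.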

Additional observations from a re-analysis of the deposited data

How the results depend on the processing

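Of 482 values recomputed for 40 results, 402 stayed the same, 41 turned in direction, 31 lost a call or part of a count, and 8 gained. For the value of a family, the same meant its direction and its side of the threshold. For a count of members called it meant an equal or similar count, also where 0 stayed 0. For relative charging it meant the direction only. The cause was not tested for any of them. In MEF cells, the 1 family called in charging became 0 with the library median subtracted, a replicate block, both together or quasi-binomial regression, and 2 with limma on the fraction or with equal weights for genes. With the library median subtracted, alone or with the block, charging turned to -0.71 for tRNA-Leu-CAA and -0.58 for tRNA-Ile-TAT. With that setting the neither-end calls went from 2 to 0, and tRNA-Leu-CAA turned to 0.42 and tRNA-Ile-TAT to 0.91. In read share, tRNA-Arg-TCT turned to 0.19 on reads with either end only. Member genes called in charging went from 3 to 0 with no minimum, the library median subtracted, a replicate block, both, or quasi-binomial regression. Member genes called in read share went from 7 to 3 with no minimum. With a minimum of 500 reads 0 were called, but only 1 member gene was then tested. That was Arg-TCT-1-1, which was not called in the main fit, so the 7 called genes were not retested.

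In NTERT cells no family or member gene was called under any alternative, while small differences turned. Over all features, read share gave 1 isoacceptor without NT library 1 or without UV-B library 2, and 1 gene with the replicate block and 3 without NT library 3. Charging of tRNA-Arg-TCT became 0.015 with the library median subtracted, with or without the block, and 0.33 with equal weights, where tRNA-Tyr-GTA became -0.24. tRNA-Ile-TAT became 0.077 by quasi-binomial regression. The read share of tRNA-Arg-TCT became 0.012 by library totals and 0.010 by median-of-ratios scaling. With equal weights for the other isoacceptors, the relative charging of tRNA-Leu-CAA became -0.0080.

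With each library left out, the families called in MEF charging ranged from 0 to 2 and the member genes from 0 to 6, and the member genes called in read share from 3 to 6. tRNA-Ile-TAT in MEF cells ranged from -0.035 to 1.19 in charging and from -0.63 to 0.12 in neither-end reads, where tRNA-Leu-CAA ranged from -1.25 to -0.31 and gained a call without HF library 3. In NTERT cells, charging ranged from -0.34 to 0.12 for tRNA-Arg-TCT, from -0.0022 to 0.32 for tRNA-Leu-CAA and from -0.21 to 0.84 for tRNA-Tyr-GTA. Read share ranged from -0.31 to 0.20 for tRNA-Arg-TCT and from -0.45 to 0.052 for tRNA-Tyr-GTA. Neither-end reads ranged from -0.15 to 0.27 for tRNA-Leu-CAA, from -0.49 to 0.39 for tRNA-Tyr-GTA and from -0.013 to 0.53 for tRNA-Ile-TAT. Charging relative to the other isoacceptors ranged from -0.21 to 0.30 for tRNA-Arg-TCT, from -0.014 to 0.63 for tRNA-Leu-CAA and from -1.17 to 0.10 for tRNA-Ile-TAT.

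The replicate numbers did not pair the libraries: same-numbered deviations correlated from -0.49 to 0.59, and in no measure were all 3 pairs above 0.1. With the replicate block, tRNA-Arg-TCT charging in MEF cells kept its difference of 2.50 (limma adjusted p = 0.109) and the read share of tRNA-Leu-CAA its -1.57 (adjusted p = 0.00132). Count models (edgeR, DESeq2) were not run, although the deposited values are whole-number counts. Few reads limit the MEF values of tRNA-Ile-TAT most, with 58 to 305 reads with either end per library.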
